A study of Rattus norvegicus with 4 samples.

Results

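Integrins and laminins are cell adhesion partners, and their genes were followed in the clones wtPC12 and hrPC12 of the rat pheochromocytoma line PC12. The genes are all those of the count files whose names are integrin alpha subunits (Itga with a number or a single letter), integrin beta subunits (Itgb with a number) or laminin chains (Lama, Lamb or Lamc with a number). The rule, which uses names and no measured value, found 27 of 25810 genes, 20 of integrins and 7 of laminins. RNA of wtPC12, labelled as having low REST levels, and of hrPC12, labelled as having high REST levels, was sequenced in 2 libraries per clone. REST is a transcriptional repressor of neuronal genes. Both groups share the PC12 origin and no treatment or genetic manipulation is given for either, and each level of REST is represented by 1 clone, so that the effect of REST and other differences of the clones cannot be told apart. The sources do not say whether the libraries of a clone came from separate cultures, so the p values measure the spread between these libraries, which may be technical.

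An integrin is a membrane receptor made of 1 alpha and 1 beta subunit, and the pair sets the ligand. Some alpha subunits bind laminins, some collagens, some the RGD peptide of fibronectin and vitronectin, and some are found mostly on leukocytes, where they bind counter-receptors of other cells. Laminins are secreted trimers of 1 alpha, 1 beta and 1 gamma chain that form the network of basement membranes. PC12 derives from chromaffin cells of the adrenal medulla, and its cells extend neurites on laminin and collagen through integrins that contain the beta1 subunit.

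Between 20975027 and 27246502 reads per library fell on genes. Levels are given as normalized counts, that is read counts scaled by library size and edgeR's TMM factors, and are compared between clones and not between genes, since gene lengths were not used here. Rest had 43.0 and 132 normalized counts in the wtPC12 libraries and 963 and 914 in the hrPC12 libraries (log2 FC 3.42, standard error 0.57, adjusted p = 0.0116, not past the threshold of 0.01). Of 8 chromaffin marker genes in the files 5 were lower in hrPC12 past both thresholds defined below, among them Th, the catecholamine synthesis enzyme (log2 FC −3.08), while Ddc had an adjusted p of 0.322. Past both thresholds 4.84% of all tested genes were higher and 5.46% lower. Of 10 mesenchymal marker genes tested 6 were higher past both thresholds and none lower, while Thy1 (log2 FC −0.99, adjusted p = 0.0137) and Dcn (log2 FC −3.10, adjusted p = 0.0182) had lower values in hrPC12. The summed level of the 11 in the files was 17214 to 19292 normalized counts in wtPC12, mostly Thy1, and 104091 to 109686 in hrPC12, mostly Col3a1. The part of these genes' differences in the results was not tested. In bulk RNA, fewer cells that express a gene and less RNA of it per cell cannot be told apart.

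Of the 27 genes, 25 had at least 1 read. The filter on low values, which asks for reads in both clones and a mean of 5 or more normalized counts, left 15 for the test. Another 5, Itga4, Itga11, Itgax, Lama1 and Lama2, had reads in both hrPC12 libraries and none in wtPC12, which kept them out of the test. The other 7 had few or no reads. A gene is said to have risen or fallen when it passed 2 thresholds, an adjusted p under 0.01 (quasi-likelihood test of edgeR, Benjamini-Hochberg over all 13726 tested genes) and a log2 fold change (log2 FC), hrPC12 over wtPC12, past 2 in either direction. Of the 15 tested genes 4 rose in hrPC12, among them Itga5, Itga7 and Lamc3, and 1, Lamb3, fell. Lamc3 had 1 read in wtPC12 and reached the mean of 5 through its hrPC12 reads, so its passing says little beyond these counts. Over all tested genes 4.84% rose and 5.46% fell. With an adjusted p under 0.05 and no fold threshold, 7 of the 15 were higher and 2 lower, against 16.1% and 16.3% of all tested genes. Both hrPC12 libraries lay above both wtPC12 libraries in 8 of the 15 genes and below them in 5, against 37.9% and 35.6% of all tested genes. The median log2 FC was 0.81 over the 15 genes and 0.06 over all tested genes. Without wtPC12 replicate 2 none of the 5 genes kept an adjusted p under 0.01 in edgeR's test, although 9 of 15 had an unadjusted p under 0.05. In that setting no gene of the whole table passed, and the 5 genes had adjusted p values from 0.01345 to 0.0340.

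**Figure D1:**
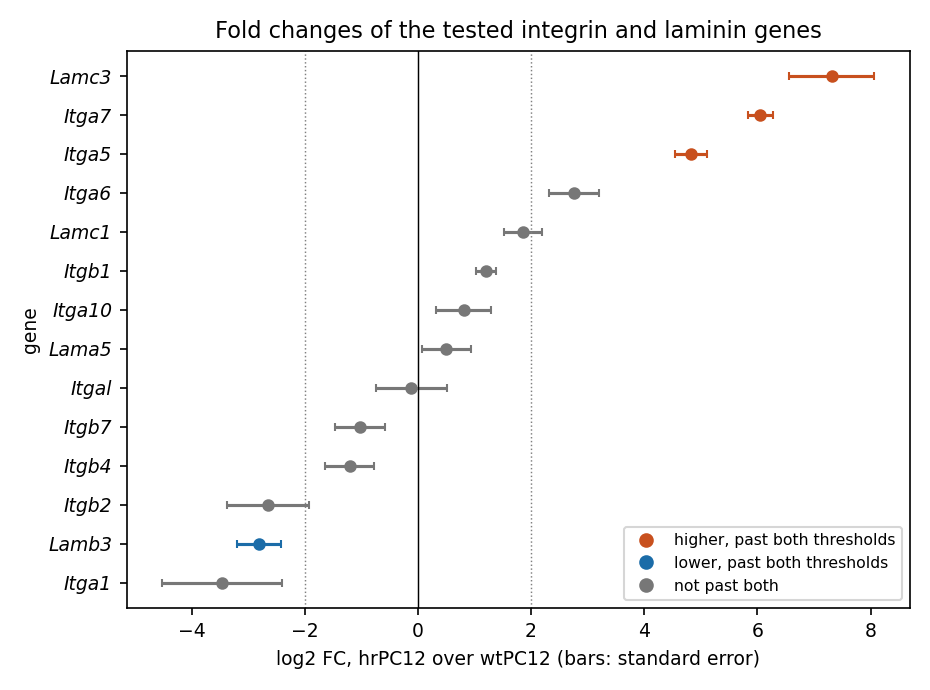
Log2 FC (hrPC12 over wtPC12) of 14 of the tested integrin and laminin genes, 1 row per gene, with the standard error as bars, orange for genes that rose, blue for the gene that fell, grey for others and dotted lines at a log2 FC of −2 and 2. Itga5, Itga7 and Lamc3 stand above 4 and Lamb3 below −2, while Itga1 and Itgb2 lie past −2 and Itga6 past 2 without passing the adjusted p threshold. The fitted values of Lamc3 and Itgb2 rest on few reads in 1 clone.

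Among the laminin-binding alpha subunits, Itga7 codes for alpha7, the laminin receptor of muscle fibers. In the wtPC12 libraries, replicate 1 first here and below, it had 46.5 and 48.4 normalized counts, and in those of hrPC12 3091 and 3221. The clones lay far apart. The log2 FC was 6.05, with a standard error of 0.22 and an adjusted p of 0.000261 (66.3-fold), and over the alternative settings it ranged from 5.98 to 6.12. Itga6 codes for alpha6, which pairs with beta1 or beta4. It had 33.7 and 72.0 normalized counts in wtPC12 and 345 and 378 in hrPC12 (log2 FC 2.77, standard error 0.44, adjusted p = 0.0107). The fold was past the threshold and the adjusted p was not. Under alternative settings such as DESeq2 and edgeR's RLE factors the adjusted p was under 0.01. In these 2 settings 6.4% and 6.33% of all tested genes were higher past both thresholds, against 4.84% in the main test. In a test against a log2 FC of 2 (edgeR's glmTreat) the adjusted p was 0.207. Itgb4, the subunit of hemidesmosomes that pairs with alpha6 only, had 88.3 and 133 normalized counts in wtPC12 and 60.05 and 35.4 in hrPC12 (log2 FC −1.21, standard error 0.44, adjusted p = 0.0911). The libraries of the clones did not overlap, with wtPC12 above where hrPC12 was above for Itga6, but the difference did not pass the test. Itga3, another laminin-binding subunit, was not analysed here.

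Of the skeletal muscle markers set beside Itga7, 5 of 9 tested genes rose in hrPC12 and none fell past both thresholds. Over all tested genes 4.84% rose and 5.46% fell. The summed level of the 11 markers in the files was 279.9 to 403 normalized counts in wtPC12 and 4925 to 5399 in hrPC12. In hrPC12 most of it came from Myod1. The 5 markers that rose were Myod1 and Myog, transcription factors of muscle, and Acta1, Tnnt3 and Tnnc1 of the contractile apparatus. Myod1 had a mean of 11.5 normalized counts in wtPC12 and 3414 in hrPC12. Des, the muscle intermediate filament gene, was not among the 5 (log2 FC −1.99, adjusted p = 0.0527), and Myf5 had 0 reads in all libraries. Ckm (log2 FC 1.18, adjusted p = 0.0796), Tnnt1 (−0.11, adjusted p = 0.900) and Chrna1 (−0.11, adjusted p = 0.857) did not pass either. The part of these markers in the result for Itga7 was not tested.

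Among the subunits that bind the RGD peptide, Itga5 codes for alpha5, which forms the fibronectin receptor with beta1. It had 32.5 and 41.2 normalized counts in wtPC12 and 1046 and 1047 in hrPC12. This 28.3-fold difference (log2 FC 4.82, standard error 0.28) had an adjusted p of 0.000668. The hrPC12 libraries were nearly equal, and the libraries of the clones did not overlap. Itgb3 had 0 reads in all libraries, which allows up to 3.49, 3.09, 2.54 and 3.03 normalized counts in wtPC12 replicates 1 and 2 and hrPC12 replicates 1 and 2, a limit that covers counting error only. Itgb6 had 2 reads in hrPC12 replicate 2 only, and Itgb8 1 read in wtPC12 replicate 1 and 2 reads in hrPC12 replicate 1. Expression of these beta subunits was thus not detectable above a floor of 3 reads. Itga8, Itgav and Itgb5 were not analysed here.

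Itgb1 codes for beta1, the partner of most alpha subunits. It had 10116 and 9527 normalized counts in wtPC12 and 21747 and 23490 in hrPC12 (log2 FC 1.20, standard error 0.18, adjusted p = 0.00832). The clones did not overlap, and the difference passed the adjusted p threshold at 2.30-fold, short of the fold threshold. With a library left out the adjusted p was 0.0219 to 0.0515, while the log2 FC stood between 1.10 and 1.27 over all alternatives. The log2 FC of Itga5, Itga6 and Itga7, whose products take beta1 as partner, were larger. Those of Itga10 (0.81) and Itga1 (−3.46), whose products also pair with beta1, were not, and differences between genes were not tested.

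Of the collagen-binding subunits none passed both thresholds, and only Itga1 and Itga10 could be tested. Itga1 codes for alpha1, a receptor of type IV collagen. Its normalized counts were 128 and 917 in wtPC12 and 67.7 and 26.3 in hrPC12. The lowest wtPC12 library was above both hrPC12 libraries, but the wtPC12 libraries differed 7.17-fold between themselves, and the log2 FC of −3.46 (standard error 1.05) had an adjusted p of 0.0591. It passed both thresholds with DESeq2 (log2 FC −3.51, adjusted p = 5.85e-05) and without wtPC12 replicate 1 (−4.31, adjusted p = 0.00887) or hrPC12 replicate 1 (−4.31). Without wtPC12 replicate 2 the log2 FC was −1.43 (adjusted p = 0.213). Itga10 had 9.30 and 14.4 normalized counts in wtPC12 and 23.7 and 18.2 in hrPC12 (log2 FC 0.81, adjusted p = 0.247). Itga11, a collagen receptor of mesenchymal cells, had 0 reads in both wtPC12 libraries and 16.1 and 34.4 normalized counts in hrPC12, at least 7.67-fold higher if 3 reads are taken as the floor in each wtPC12 library. Itga2 had 0 reads in all 4 libraries.

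Itga4 and Itga9 form a pair of related subunits that bind the counter-receptor Vcam1 and matrix ligands. Itga4 had 0 reads in both wtPC12 libraries and 40.6 and 39.4 normalized counts in hrPC12, at least 12.2-fold higher. Itga9 had 1.16 and 2.06 normalized counts in wtPC12 and 8.46 and 3.03 in hrPC12, from 3 and 13 reads, a ratio of 3.66 with a 95% exact counting interval of 1.0 to 20.0. Both hrPC12 libraries were above the floor for Itga4, and only replicate 1 for Itga9.

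Most genes of the leukocyte integrins had few reads. Itgb2, the beta subunit that the alpha subunits Itgad, Itgal, Itgam and Itgax need, had 20.9 and 9.26 normalized counts in wtPC12 and 2.54 and 2.02 in hrPC12, where it was at the floor of 3 reads. The ratio of wtPC12 to hrPC12 was 6.40 with a 95% exact counting interval of 2.43 to 21.3. The adjusted p was 0.0458 in edgeR's test and 0.139 with DESeq2. Itgal had 10.5 and 8.23 normalized counts in wtPC12 and 11.8 and 5.05 in hrPC12 (log2 FC −0.12, adjusted p = 0.892). Itgb7 had 48.8 and 84.4 normalized counts in wtPC12 and 29.6 and 36.4 in hrPC12, with no overlap between the clones and an adjusted p of 0.134. Itgax had 0 reads in wtPC12 and 21.1 and 15.2 normalized counts in hrPC12, at least 5.52-fold higher. RefSeq gives Itgax as a synonym of Itgad, and the genes lie among near relatives, so the reads of Itgax are uncertain. Itgad and Itgam had 1 read each.

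Markers of white blood cells were read beside these integrins. Of 17 such markers in the files 13 had at least 1 read and 4 could be tested, and Cd3d, Cd8a, Cd79b and Cd48 had 0 reads in all libraries. Ptprc, which every leukocyte carries, had 1 read in hrPC12 replicate 1 and none elsewhere. The summed level was 1237 to 1329 normalized counts in wtPC12 and 679.1 to 802.6 in hrPC12, most of it from Coro1a and, in hrPC12, Cd14. Of the 4 tested markers Coro1a fell (log2 FC −2.20) and Cd14, a receptor of monocytes, rose (log2 FC 5.17, adjusted p = 0.000996), while Cd68 had a log2 FC of 1.63 (adjusted p = 0.0283) and Cd3e one of 0.46 (adjusted p = 0.661). The part of such markers in the values of the leukocyte integrins was not tested.

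**Figure D2:**
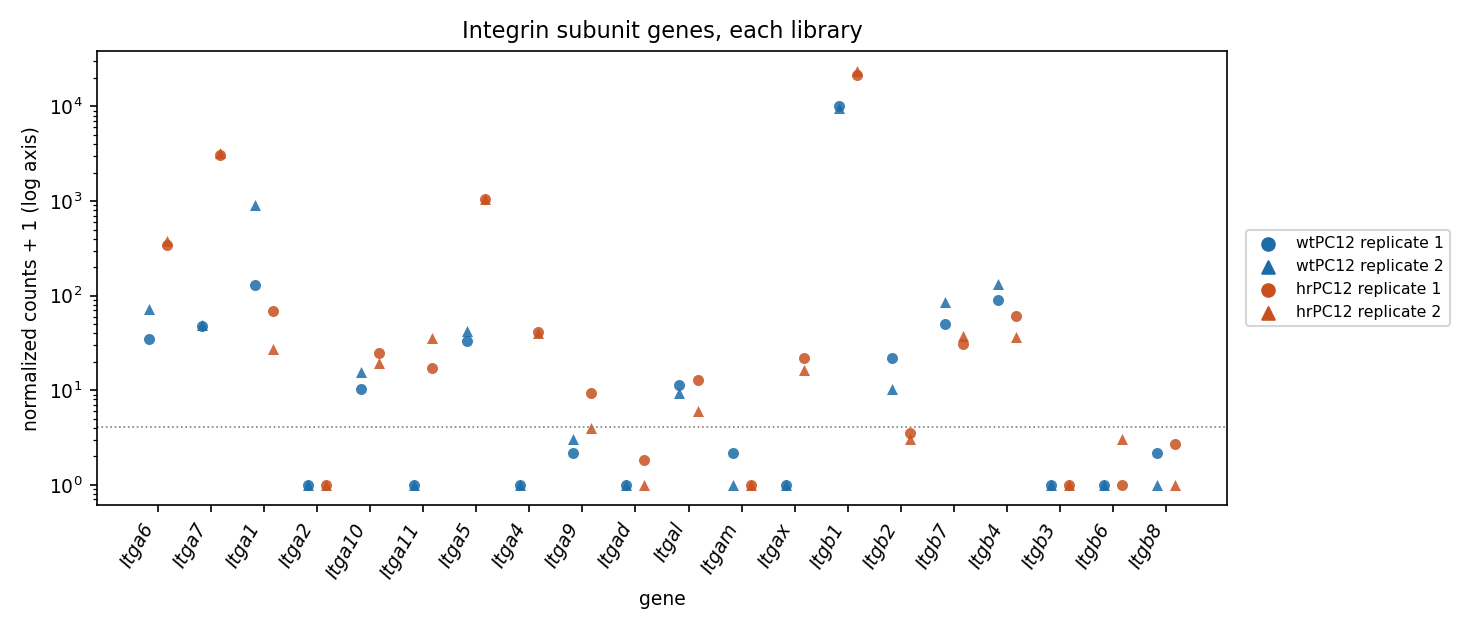
Normalized counts plus 1 (log axis) of the 20 integrin genes in each library, wtPC12 in blue and hrPC12 in orange, with circles for replicate 1 and triangles for replicate 2. The dotted line is the mean over libraries of the floor of 3 reads, and Itga4, Itga11 and Itgax have wtPC12 points at 0 and hrPC12 points above that line.

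Among the laminin chains, Lamc3, which codes for gamma3, rose. It had 1.16 and 0 normalized counts in wtPC12 and 112 and 101 in hrPC12. Since the wtPC12 libraries held 1 read together, the change is given as the ratio of the reads per library size, 197-fold with a 95% exact counting interval of 34.9 to 7797 (adjusted p = 0.00278). The wtPC12 libraries were under the floor and the hrPC12 libraries lay together. Without wtPC12 replicate 1 Lamc3 could not be tested, since the remaining wtPC12 library holds no read of it. Lamc1 codes for gamma1, the gamma chain of most laminins. It had 1204 and 2323 normalized counts in wtPC12 and 6407 and 6363 in hrPC12 (log2 FC 1.86, standard error 0.34, adjusted p = 0.0158), higher in both hrPC12 libraries and short of both thresholds.

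Lamb3 codes for beta3, a beta chain of epithelial laminin, and was the gene that fell. It had 780 and 561 normalized counts in wtPC12 and 121 and 69.7 in hrPC12. The log2 FC was −2.81 (standard error 0.39, adjusted p = 0.00709), and the level 7.01-fold lower in hrPC12. The clones did not overlap. Its adjusted p was 0.0139 without wtPC12 replicate 1, 0.0340 without wtPC12 replicate 2 and 0.135 in a test against a log2 FC of 2 (edgeR's glmTreat). Of 6 tested epithelial markers 4 were lower in hrPC12 past both thresholds and none was higher, against 5.46% and 4.84% of all tested genes. The 4 were Epcam, Krt8, Cldn4 and Cldn7. The summed level of the 9 in the files, mostly Krt8 and Epcam, was 39739 to 51863 normalized counts in wtPC12 and 9124 to 9131 in hrPC12. The keratin genes Krt14, Krt17 and Krt19 had the opposite order to the keratin gene Krt8. Krt19 had a log2 FC of 3.05 (adjusted p = 0.0122), and Krt14 and Krt17 had 0 reads in wtPC12 and at least 6 reads in each hrPC12 library. Cdh1 had a log2 FC of −1.37 (adjusted p = 0.0198). The part of these markers in the fall of Lamb3 was not tested.

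Of the alpha chains only Lama5 had reads in both clones. Lama1, the alpha chain of the earliest embryonic laminin, had 0 reads in wtPC12 and 14.4 and 18.2 normalized counts in hrPC12, at least 4.96-fold higher. Lama2, the alpha chain of muscle laminin, also had 0 reads in wtPC12, and 41.4 and 24.3 normalized counts in hrPC12, at least 9.99-fold higher. For both genes each hrPC12 library was above its floor. Lama5, the alpha chain of most adult basement membranes, had 1668 and 2839 normalized counts in wtPC12 and 4300 and 2100 in hrPC12, with overlapping clones (log2 FC 0.51, standard error 0.43, adjusted p = 0.394). Lama3, Lama4, Lamb1, Lamb2 and Lamb4 were not analysed here.

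When every gene with at least 1 read was tested, the 5 genes without reads in wtPC12, Itga4, Itga11, Itgax, Lama1 and Lama2, entered the test through their hrPC12 reads alone. They passed both thresholds there, which restates that they had no reads in wtPC12 and adds nothing to it. They make up 5 of the 10 members higher in that setting, in which 6.12% of 18416 genes were higher. Among the members tested before, Itga6 was added.

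**Figure D3:**
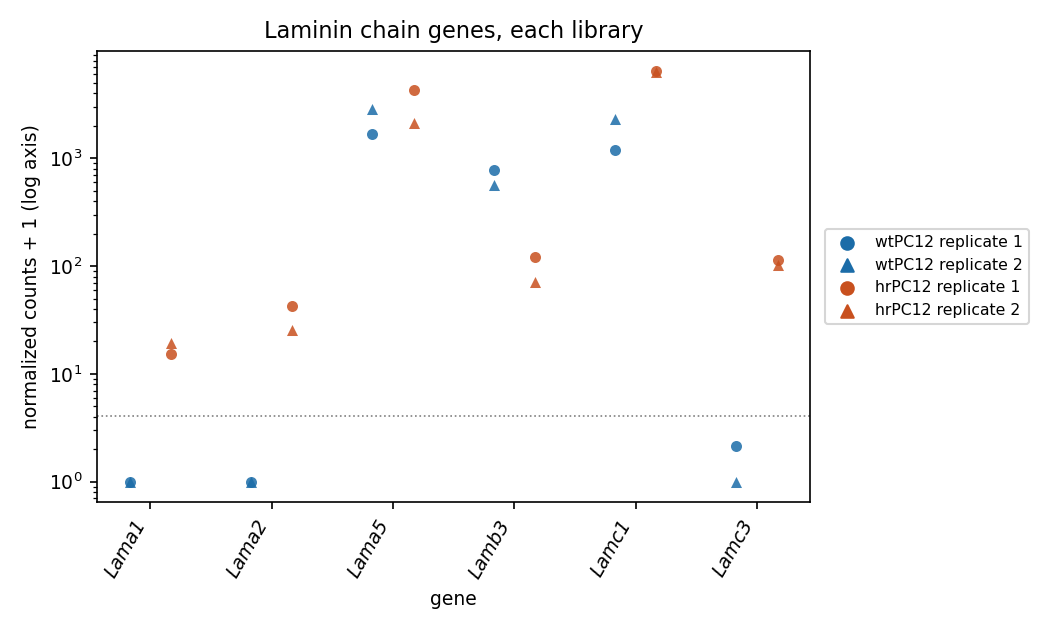
Normalized counts plus 1 (log axis) of 6 laminin chain genes in each library, wtPC12 in blue and hrPC12 in orange, with circles for replicate 1 and triangles for replicate 2 and a dotted line at the mean floor of 3 reads. Lamc3 has wtPC12 points under the line and hrPC12 points above 100, Lamb3 is lower in hrPC12, and Lama5 overlaps.

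The stretches before the start sites of 3 of the genes that changed are shown beside their values, with short motifs of known factors marked. The bases come from RefSeq and the assembly GRCr8, another one than that used for counting, and 19 of the 27 genes had a stretch in that table, Itga7 not among them. Capitals mark matches to GGACAG (the right part of the REST site), CAGAC (a Smad box) and GGGCGG (a GC box) on either strand, in the 250 bases before the annotated start site or, for Lamb3, the part of these before the gene's first annotated base. Itga5 (chr7:136381306-136381555, minus strand) and Lamc3 (chr3:35562739-35562988, plus strand) rose, and Lamb3 (chr13:107362303-107362513, plus strand) fell.
Itga5: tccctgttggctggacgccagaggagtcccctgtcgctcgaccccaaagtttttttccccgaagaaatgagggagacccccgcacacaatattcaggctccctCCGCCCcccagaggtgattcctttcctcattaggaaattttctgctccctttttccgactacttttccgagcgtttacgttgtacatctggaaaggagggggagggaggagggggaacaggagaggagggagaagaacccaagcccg
Lamc3: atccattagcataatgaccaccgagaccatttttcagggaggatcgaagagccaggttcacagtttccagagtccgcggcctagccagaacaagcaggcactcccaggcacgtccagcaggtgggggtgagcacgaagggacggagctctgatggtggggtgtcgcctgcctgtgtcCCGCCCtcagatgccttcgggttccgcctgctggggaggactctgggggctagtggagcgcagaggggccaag
Lamb3: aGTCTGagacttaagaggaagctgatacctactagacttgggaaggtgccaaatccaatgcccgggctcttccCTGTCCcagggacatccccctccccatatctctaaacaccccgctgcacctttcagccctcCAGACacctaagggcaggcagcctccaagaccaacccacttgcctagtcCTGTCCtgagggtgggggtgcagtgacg
Lamb3 held 2 matches to GGACAG and 2 to CAGAC, and Itga5 and Lamc3 held 1 match each to GGGCGG and none to the other letters. GGACAG was found in 7 of the 19 genes and in 18.3% of 27457 such stretches over all genes, CAGAC in 12 and 42.8%, and GGGCGG in 11 and 32.4%. The left part of the REST site, TTCAGCACC, was found in Itga9 alone and in 0.317% of all stretches. CAGCTG, a site of the Myod1 class, was found in Itga4 and Lama2 and in 11.9%, and TGANTCA, the AP-1 site, in Itgax and in 6.36%. These shares and the counts of genes used all 250 bases, also where a gene's annotated span begins within them. They were not adjusted for base composition. Stretches over all genes had a median of 52% G and C bases (quartiles 44.4% and 60.8%). The stretches shown held 55.6% for Itga5, 62% for Lamc3 and 57.8% for Lamb3, and those of Lama1 and Lama5 held 44.8% and 72.8%. The CAGCTG matches of Itga4 and Lama2 and the TGANTCA match of Itgax lay inside the annotated span of the gene, not before it. A match describes the letters of the window and nothing about binding.

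Genes around the integrins were read from 4 lists of adaptors, ligands and other receptors. Of the 78 genes listed 63 were in the files and 53 could be tested, and 10 rose and 3 fell in hrPC12, with a median log2 FC of 0.80, where over all tested genes 4.84% rose and 5.46% fell. Of 26 integrin adaptors tested 1 rose, Nedd9, a docking protein of focal adhesions, with 6.97 and 9.26 normalized counts in wtPC12 and 325 and 329 in hrPC12 (log2 FC 5.30, standard error 0.37). Ptk2b, a kinase related to the focal adhesion kinase, fell from 2277 and 2643 to 18.6 and 33.4 (log2 FC −6.57, standard error 0.38). The other 24 adaptors tested did not pass both thresholds. Of the talins, which activate integrins, Tln1 had a log2 FC of 1.62 (adjusted p = 0.00426) and Tln2 one of −2.24 (adjusted p = 0.0382). Flna, a filamin that crosslinks actin, had a log2 FC of 2.27 (adjusted p = 0.0177), and Actn4, the adaptor with the most normalized counts over the 4 libraries together, one of 0.81 (adjusted p = 0.0287). Of the 26 adaptors tested 11 were higher and 6 lower with an adjusted p under 0.05, against 16.1% and 16.3% of all tested genes.

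Among the partners of laminin in basement membranes 2 of 5 tested genes rose and none fell past both thresholds. Nid2, a nidogen that links laminin to collagen, had 15.1 and 31.9 normalized counts in wtPC12 and 233 and 201 in hrPC12 (log2 FC 3.19, standard error 0.46), and Sparc, a collagen-binding glycoprotein, had 304 and 214 against 18898 and 20348 (log2 FC 6.24, standard error 0.28). Col4a5, a collagen chain chosen here after its values were seen, had 0 reads in wtPC12 and 592 and 302 normalized counts in hrPC12, at least 136-fold higher. The related chain Col4a3 had the other order (log2 FC −2.27, adjusted p = 0.0630), and Col4a1 and Col4a4 had at most 6 reads in any library. Nid1 had 0 reads in all libraries.

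Of 12 other receptors tested 3 rose and 1 fell. Those that rose included Sgca, a part of the dystroglycan complex of muscle that is not its laminin-binding site, and Cd44, which is chiefly a receptor for hyaluronan. Sgca had 0 and 1 read in wtPC12 and 521 and 537 normalized counts in hrPC12, a ratio of 968 with a 95% exact counting interval of 173 to 38256. Cd44 had 3.49 and 2.06 normalized counts in wtPC12 and 320 and 318 in hrPC12, a ratio of 117 with an interval of 49.9 to 361. Sgca and Cd44 reached the mean that the filter asks for through their hrPC12 reads. The gene that fell, Bcam, codes for a receptor of laminin alpha5 chains and had 5607 and 4062 normalized counts in wtPC12 and 42.3 and 42.5 in hrPC12 (log2 FC −6.83, standard error 0.28). Dag1, the laminin-binding dystroglycan, had a log2 FC of 0.80 (adjusted p = 0.0802), and Rpsa, with the most normalized counts over the 4 libraries, one of −0.71 (adjusted p = 0.129).

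Of 10 tested RGD and counter-receptor ligands 4 rose and 1 fell. Fn1, fibronectin, which alpha5 beta1 binds, had 0 and 2.06 normalized counts in wtPC12 and 183 and 175 in hrPC12, a ratio of 164 with a 95% exact counting interval of 45.1 to 1360. Its hrPC12 reads alone brought it to the mean that the filter asks for. Mfge8, a ligand of alphav integrins, had 93.0 and 57.6 in wtPC12 and 7131 and 7895 in hrPC12 (log2 FC 6.64, standard error 0.32). Vwf (log2 FC 2.92) and Icam1 (log2 FC 2.05), both named after their values were seen, also rose, and Fbn1, fibrillin, fell from 488 and 1037 to 38.1 and 43.5 (log2 FC −4.22, standard error 0.48). Itga5 and Fn1 were thus both higher in hrPC12. Vcam1, given above as the counter-receptor of Itga4 and Itga9, did not pass the thresholds (log2 FC 1.07, adjusted p = 0.150).

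**Figure D4:**
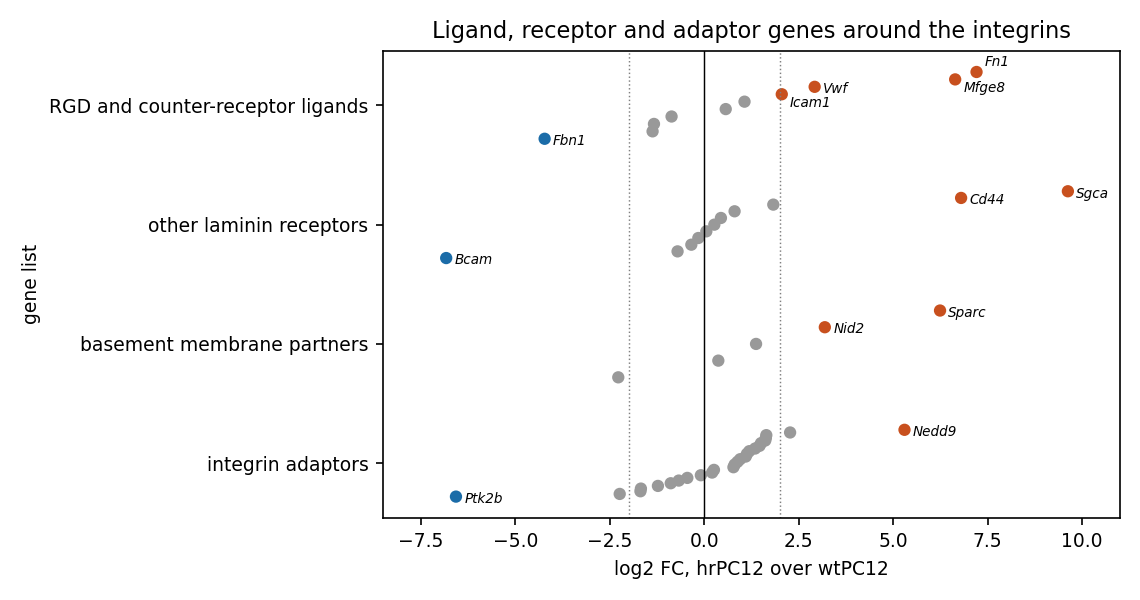
Log2 FC (hrPC12 over wtPC12) of 52 tested ligand, receptor and adaptor genes, 1 point per gene in 4 rows by list, with orange for genes that rose, blue for genes that fell, grey for others and dotted lines at −2 and 2. Fitted values of Sgca and Fn1 rest on 1 or 2 reads in wtPC12, and most adaptors lie between −2 and 2.

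Of the 15 tested members, 4 had counts in hrPC12 replicate 1 that stood above replicate 2 together with the genes next to them. The ratio of replicate 1 to replicate 2 was 2.54 for Itga1, 2.05 for Lama5, 1.73 for Lamb3 and 1.69 for Itgb4, and the medians of the 6 nearest tested genes in the RefSeq order were 1.74, 1.71, 1.63 and 1.79. For the other 11 members the neighbours had medians from 0.909 to 1.02. Without hrPC12 replicate 1 the log2 FC was −3.26 for Lamb3, −4.31 for Itga1, −1.64 for Itgb4 and −0.10 for Lama5, whose direction thus turned. What raises neighbouring genes in this library was not tested. For genes outside the tested members the neighbours were not read. Among those genes the ratio was 1.90 for Flna, 1.96 for Col4a5 and 1.71 for Lama2, and 0.93 for Sparc and 1.04 for Fn1. Between the wtPC12 libraries, where Itga1 differed most, its 6 neighbours had a median ratio of replicate 2 to replicate 1 of 0.965.

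**Figure D5:**
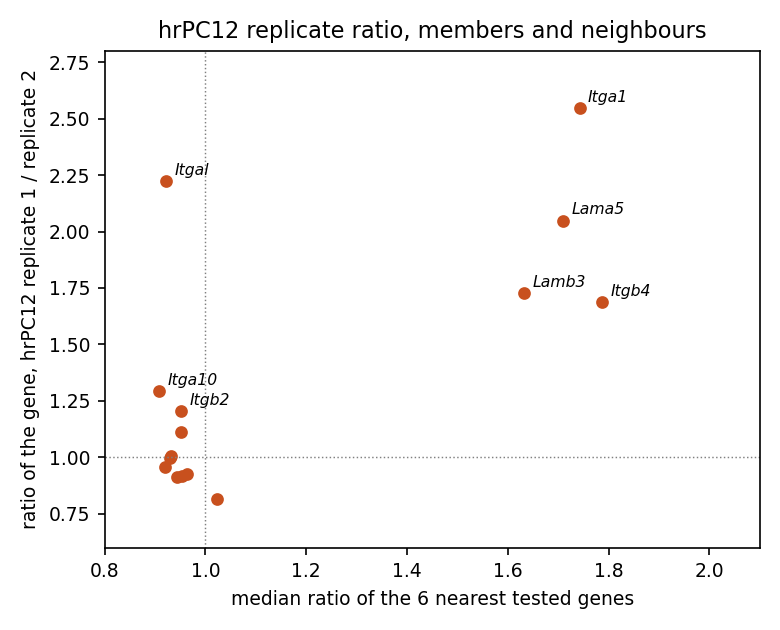
Ratio of normalized counts, hrPC12 replicate 1 over replicate 2, of each of the 15 tested members (vertical axis) against the median ratio of its 6 nearest tested genes (horizontal axis), with 0.5 added to each value and dotted lines at 1. Itga1, Lama5, Lamb3 and Itgb4 lie apart on both axes, and Itgal is high while its neighbours are near 1.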

How the data were processed

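RNA of wtPC12 and hrPC12, 2 libraries per clone, was sequenced from both ends of each fragment. Raw read counts per gene were deposited by the authors, unfiltered and not normalized, after alignment with TopHat to the rat build RGSC3.4/rn4. The submitters' processing notes name TopHat2 2.0.4, HTSeq 0.5.3 and DESeq 1.9.12. The authors' own table of fold changes and p values was not used. The rows of reads outside genes, in several genes or without a unique position, 58.7% to 62.1% of the reads accounted for, were left out of library sizes. The sources do not say whether strand was used in counting, so overlapping genes on opposite strands cannot be told apart.

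Counts were normalized with TMM factors of edgeR 4.0.16 (R 4.3.3). The filter (reads in both clones, mean of 5 or more normalized counts) and the thresholds (adjusted p 0.01, log2 FC 2) followed the study. The test was edgeR's quasi-likelihood F test (legacy option on, Benjamini-Hochberg adjustment over 13726 genes) in place of DESeq. The standard error is the log2 FC divided by the square root of the F statistic. The script was tested on simulated counts. For a single gene, 2 against 2 libraries allow no 2-sided permutation p under 0.333. Members and lists were chosen with earlier results of these data known. Named genes are the members, and of each list the 2 genes with the largest change in each direction past both thresholds and the gene with the highest mean normalized count over the libraries. Any other gene of the lists was named after its values were seen. Some genes that this rule covers are counted but not reported by name. Where a clone held at most 3 reads per library, ratios carry an exact binomial interval, or a bound at 3 reads, for counting error only. Levels per gene length, which had been planned, were not computed. Alternatives were RLE factors, library totals, every gene with a read, filterByExpr, DESeq2 1.42.0, the legacy option off, glmTreat, a prior count of 2 and each library left out in turn, where the lone library of a clone is assumed to vary like the other clone.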

Additional observations from a re-analysis of the deposited data

How the results depend on the processing

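Of the log2 FC values of the 15 tested members under the 12 alternatives, 155 kept their direction and their side of the thresholds, 11 came to pass both, 7 ceased to pass and 3 turned sign. The 3 were all without a library, 0.02 and 0.30 for Itgal (range −0.87 to 0.30) and −0.10 for Lama5 (range −0.10 to 0.94). Itgb2, Lamc3 and Itgal could not be tested under some alternatives, whose filters removed them. The 4 members higher in hrPC12 became 10 with every gene tested and 7 with filterByExpr, and from 0 to 5 with a library left out. The 1 lower member became 2 with DESeq2 (Itga1 added) and 0 with glmTreat, where 6 members had an unadjusted p under 0.05, and from 0 to 2 with a library left out. The 9 members with an adjusted p under 0.05 became 15 with every gene tested and 4 with glmTreat, and 8 to 9 with a library left out. Of the genes of the 4 lists the 10 higher became 6 with glmTreat and 0 to 10 with a library left out, and the 3 lower 0 to 4. The counts of 0 with a library left out all came without wtPC12 replicate 2, where edgeR called 0 of 13590 genes and 6798 had an unadjusted p under 0.05, and no other tool was run. More members entered the test with every gene tested and with filterByExpr (25 and 18 in place of 15), and glmTreat asks for a change past the fold threshold. Among the 7 higher with filterByExpr, Itga4 and Lama2 had 0 reads in wtPC12 and entered through their hrPC12 reads alone. Their passing restates this and adds nothing to it. In that setting 6.46% of 13535 genes were higher. The cause of the other changes was not tested. At this depth a gene with 0 reads may still have up to 3.49 normalized counts.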
